A study of Mus musculus with 6 samples.

Results

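The genes of the mitochondrial genome were taken as all genes whose symbol starts with mt-, which are 16 of the 25939 genes listed in the tables: 13 protein genes, 2 rRNA genes and 1 tRNA gene. The annotation of the mitochondrial genome (GENCODE M21, mouse build mm10) holds 37 genes, and 21 further tRNA genes were not analysed here. RNA sequencing was done on vascular smooth muscle cells, which give the artery wall its tone and had been cultured from mouse aorta. The TMAO cells received trimethylamine N-oxide (TMAO), a metabolite formed in the liver from a product of gut bacteria, for 48 h, and the Control cells received the control treatment, with 3 libraries in each group. The sources used here do not give the strain, age, sex or number of the mice or the dose of TMAO. Nothing says that the libraries came from separate cultures or animals, and the p-values therefore reflect spread between libraries that may be technical.

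The mitochondrial genome of the mouse is a small circular DNA that codes for core subunits of the respiratory chain and the ATP synthase, together with the rRNAs and tRNAs that its own ribosomes need. Both strands are copied as long RNAs running across many genes, and these are cut at the tRNAs that lie between most of the others. Most of the resulting mRNAs receive short poly(A) tails inside the organelle, so a library made from poly(A) RNA contains them, while rRNAs and tRNAs enter it less readily. Contractile and growing cells of the artery wall use this system for oxidative ATP production.

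Values are in FPKM, a level per kilobase of exon that is divided by the total reads of a library, and the FPKM values together with exon lengths gave totals of 14991252 to 16806728 reads per library. The label of the cells was set beside marker genes. Acta2 and Myl9, of the smooth muscle cytoskeleton, averaged 483 and 94.7 FPKM in TMAO cells, against 487 and 99.1 FPKM in Control cells. The contractile markers Tagln, Cnn1 and Myh11 each averaged under 1 FPKM in both groups. Smooth muscle markers (10 genes) summed to 691 to 714 FPKM in TMAO libraries and 706 to 716 FPKM in Control libraries, which overlapped. Of 6 tested markers 3 were lower in TMAO and 3 higher. Des (1.53 against 1.11 FPKM) was higher at an unadjusted p of 0.05 (limma), as were 8.61% of all tested genes. Fibroblast markers (8 genes) summed to 650 to 662 FPKM in TMAO libraries and 687 to 695 FPKM in Control libraries. At an unadjusted p of 0.05 (limma), 3 of 7 tested markers (Pdgfra, Col1a1 and Col3a1) were lower in TMAO, as were 4.48% of all tested genes. All TMAO libraries lay below all Control libraries for 1 of the 7 (Col1a1), as for 6.23% of all tested genes. Dpt and Dcn had higher means in TMAO. Ly6a, the largest part of the sum, averaged 410 FPKM in TMAO and 415 FPKM in Control libraries. Endothelial markers summed to 12.8 to 13.3 FPKM in TMAO libraries and 15.5 to 16.9 FPKM in Control libraries, nearly all of it Emcn. Of the 8 endothelial markers 4, Pecam1 and Cdh5 among them, were under 0.1 FPKM or not listed, and Pecam1, Cdh5, Tek and Egfl7 had higher means in TMAO than in Control libraries. Macrophage markers (8 genes) summed to 78.6 to 87.7 FPKM in TMAO libraries and 79.1 to 98.8 FPKM in Control libraries. Most of this was Lyz2, with means of 70.0 FPKM in TMAO and 76.9 FPKM in Control libraries. The other tested markers, Cd68, C1qa and C1qb, had higher means in TMAO. Ptprc, which marks all blood leukocytes, stood at 0.0401 and 0.0399 FPKM. The fibroblast sum, and the endothelial sum through Emcn alone, did not overlap between the groups and were lower in TMAO, as most mitochondrial genes were, and their part in the results below was not tested. In bulk RNA, fewer cells of a type and less RNA per cell cannot be told apart.

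Sequences bear on how far each mitochondrial gene could be measured, because part of the mitochondrial genome has a near-identical copy in the nucleus. A search of the annotated mouse transcripts placed copies of 7 protein genes, at an identity of at least 99%, between positions 24611535 and 24616197 of chromosome 1 (minus strand), in the same order as on the mitochondrial genome from position 6390 to position 11042. The copy was identical to mt-Co2 over 681 of its 684 bases, to mt-Atp6 over 678 of 681, to mt-Co3 over 783 of 784 and to mt-Nd4l over 294 of 297, and it matched 344 of 348 bases of mt-Nd3. It covered 876 bases of mt-Nd4, whose length is 1378 bases, all of them identical, and 483 of the 1545 bases of mt-Co1 with 1 difference. The first 40 bases of mt-Co3 (chrM:8607-8646, plus strand) and of its copy Gm28437 (chr1:24613932-24613971, minus strand) are shown because they cannot be told apart by any read that lies within them:
mt-Co3: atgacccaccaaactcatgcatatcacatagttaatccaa
Gm28437: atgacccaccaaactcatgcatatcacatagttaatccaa

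In mt-Nd3 (chrM:9459-9498, plus strand) and its copy Gm28438 (chr1:24613080-24613119, minus strand) a single base differed over the whole copy, T3C, with positions counted from 1 at the first base of the mitochondrial gene. Capitals mark the base that differs:
mt-Nd3: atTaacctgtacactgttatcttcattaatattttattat
Gm28438: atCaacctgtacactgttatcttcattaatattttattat

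The copied end of mt-Co1 (first 40 bases, chrM:6390-6429, plus strand) and Gm29216 (chr1:24616149-24616188, minus strand) likewise differed by a single base, A1066T, again in capitals and counted from the first base of mt-Co1:
mt-Co1: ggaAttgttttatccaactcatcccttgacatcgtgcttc
Gm29216: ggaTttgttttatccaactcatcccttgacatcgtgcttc

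A read within identical sequence fits both places equally well, and how the authors' counting treated such reads is not given in the sources used here. No copy of mt-Atp8 was found among annotated transcripts, but mt-Atp8 lies between mt-Co2 and mt-Atp6, whose copies stand at the same offset to each other on chromosome 1 as on the mitochondrial genome. The nuclear sequence between them, positions 24614609 to 24614812 by that offset, was not read here. More diverged annotated copies of mt-Nd2, mt-Nd5, mt-Nd6 and mt-Cytb, at 92.4% to 96.7% identity, lay on chromosomes 2, 4 and 13, and a copy of the whole of mt-Co1 at 97.6% lay on chromosome 2.

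Levels per kilobase differed between protein genes inside and outside the copied stretch. The 5 genes covered over more than 90% of their length averaged between 6.18 FPKM (mt-Nd4l) and 289 FPKM (mt-Co2) in TMAO libraries and between 7.20 and 341 FPKM in Control libraries. The 7 other protein genes apart from mt-Atp8 averaged between 1460 FPKM (mt-Nd6) and 17617 FPKM (mt-Co1) in TMAO libraries, and between 1759 and 19896 FPKM in Control libraries. mt-Co1, which codes for the catalytic subunit of cytochrome c oxidase, had the highest level of all listed genes in both groups. The subunits of cytochrome c oxidase, mt-Co1, mt-Co2 and mt-Co3, stood at 17617, 289 and 144 FPKM in TMAO cells, against 19896, 341 and 182 FPKM in Control cells and lie on the same primary RNA. The part of the copy in this gap was not tested.

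**Figure D1:**
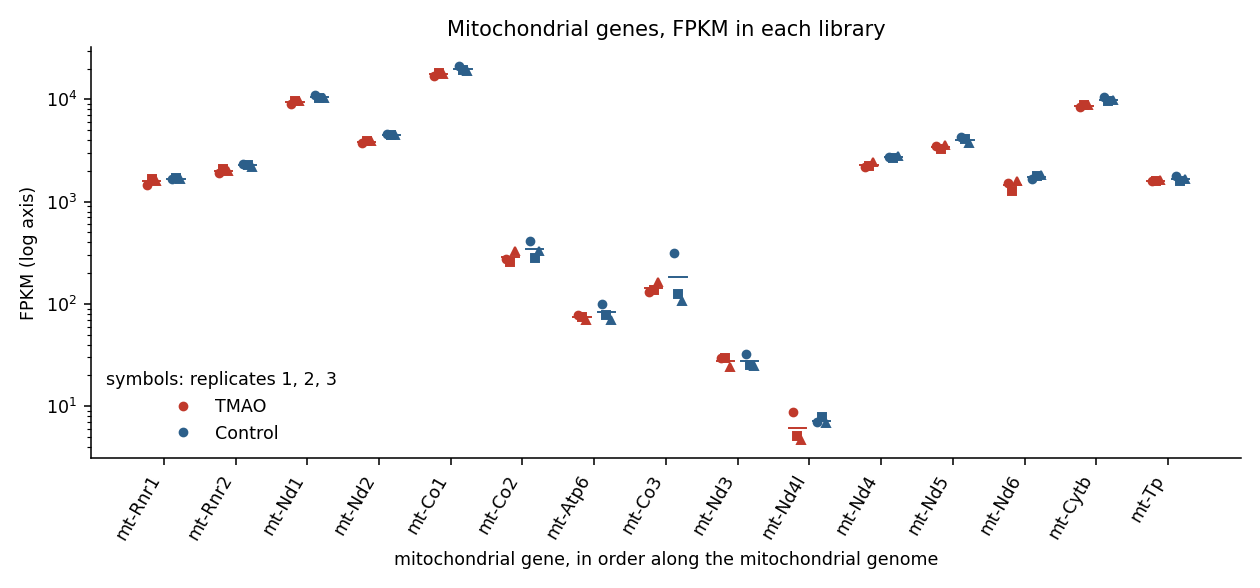
FPKM of each mitochondrial gene in each library on a log axis, TMAO left of Control, in order along the mitochondrial genome; circles, squares and triangles are replicates 1, 2 and 3, short lines are means, and mt-Atp8, at 0 in 4 libraries, is left out. The run from mt-Co2 to mt-Nd4l lies at 411 FPKM or less in every library, and every other gene shown lies at 1258 FPKM or more.

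The authors' tables also list the chromosome 1 copies, so reads were counted there as well. Gm10925, the copy of mt-Atp6 (the proton channel subunit of the ATP synthase), held 74.8% of the reads of the pair in TMAO libraries and 74.8% in Control libraries. For mt-Nd4l and mt-Nd3, subunits of complex I, the copies held 53.2% and 51.0% of the reads of each pair in TMAO libraries, against 54.1% and 48.3% in Control libraries. The copies of mt-Co2 and mt-Co3 held 38.4% and 43.8% in TMAO libraries, against 36.7% and 37.6% in Control libraries. For mt-Co3 the Control share was 46.8% without Control 1, above that of the TMAO libraries. For the partly covered genes the copies held 0.850% (mt-Nd4) and 0.0981% (mt-Co1) in TMAO libraries, against 0.835% and 0.0749% in Control libraries. None of the 7 copies passed the test described below, with log2 fold changes of -0.25 (Gm10222, the copy of mt-Nd4l) to 0.22 (Gm29216, the copy of the end of mt-Co1) and limma adjusted p-values of 0.298 to 0.873. If all reads of mt-Nd4 came from its 502 bases outside the copy, they would give 6284 ± 308 FPKM in TMAO libraries and 7549 ± 174 FPKM in Control libraries (SD, n = 3 each), above the levels of mt-Nd2 and mt-Nd5, while over its whole length it stood below both. For mt-Co1 (1062 bases outside the copy) the same calculation gave 25630 ± 783 FPKM in TMAO and 28945 ± 1645 FPKM in Control libraries. Whether reads were lost to the copies was not tested. Since reads in identical sequence fit both places, all 5 genes with a copy of over 90% are uncertain as measures of mitochondrial RNA. mt-Atp8, with at most 1 read in a library, is uncertain as well, and the nuclear sequence opposite it was not read.

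**Figure D2:**
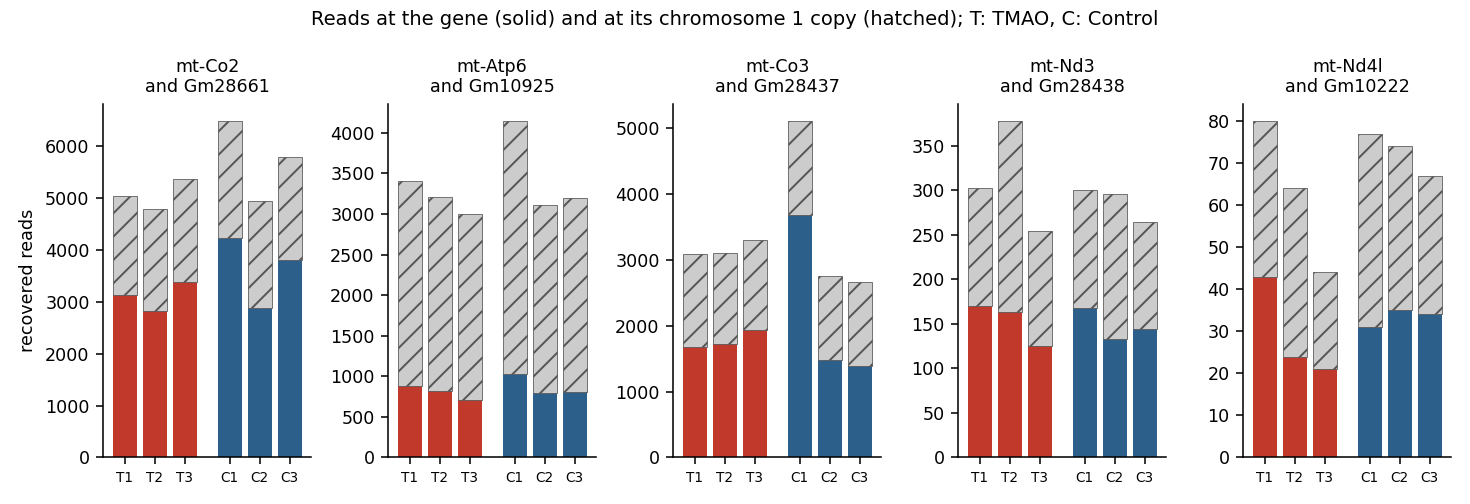
Recovered reads per library at 5 mitochondrial genes (solid bars) and, stacked on them, at the chromosome 1 copy of each (hatched bars), TMAO libraries left and Control libraries right. Control 1 stands apart for mt-Co3, with 3684 reads at the gene against 1486 and 1395 in the other Control libraries, while its 1421 reads at the copy lie near theirs.

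The protein genes that could be measured outside the copy stood lower in TMAO cells, by amounts that did not pass the test. TMAO libraries lay below all Control libraries for each of the 7 genes mt-Nd1, mt-Nd2, mt-Co1, mt-Nd4, mt-Nd5, mt-Nd6 and mt-Cytb, with log2 fold changes of -0.17 to -0.28, but with quantile normalization mt-Nd1 (0.21) and mt-Cytb (0.06) were above 0 and mt-Co1 at 0. Fold changes are TMAO over Control on the log2(FPKM + 1) scale, with p-values adjusted over all genes tested, those that reached 1 FPKM in 3 or more libraries. Of the 12 protein genes tested, 0 passed at an adjusted p of 0.05 with limma over 11062 genes, where 0.181% of all tested genes passed in either direction, 0.108% as lower and 0.0723% as higher. At an unadjusted p of 0.05, 7 of the 12 passed as lower, against 4.48% of all tested genes, and with quantile normalization 3 of the 12 had such a p. For 7 of the 12 all TMAO libraries lay below all Control libraries, against 6.23% of all tested genes, and for 0 of them above, against 12.4%. The 12 genes are cut from shared long RNAs and are not independent of each other. Their counts are therefore not separate observations, and the shares over all tested genes do not measure chance for them. The median log2 fold change of the 12 was -0.21, beside 0.02 over all tested genes and 0.02 over the 46 nuclear genes with a mean of at least 1000 FPKM. With voom on recovered reads 6 protein genes passed, and with a filter of 5 FPKM 2 passed, mt-Nd4 and mt-Nd2.

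Subunits of complex I, the NADH dehydrogenase that passes electrons to ubiquinone, made up 7 of the protein genes. mt-Nd4 (ENSMUSG00000064363, chrM:10167-11544), which codes for a proton-pumping membrane subunit, had 2202, 2250 and 2416 FPKM in TMAO 1 to 3, against 2745, 2689 and 2816 FPKM in Control 1 to 3. The groups did not overlap, and the gap between them was larger than the range within either. Its log2 fold change was -0.27 ± 0.046 (SE), a difference of -16.8% on that scale, with a limma adjusted p = 0.0624, the lowest of all members.

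mt-Nd2 (ENSMUSG00000064345, chrM:3914-4951), another membrane subunit of the proton-pumping arm, had 3756, 3915 and 3938 FPKM in TMAO 1 to 3, against 4607, 4471 and 4462 FPKM in Control 1 to 3. Both groups were tight, with coefficients of variation of 2.56% in TMAO and 1.80% in Control libraries. On the log2 scale TMAO stood at -0.22 ± 0.040 (SE) to Control, with a limma adjusted p = 0.0743. mt-Nd1 (ENSMUSG00000064341, chrM:2751-3707), at the junction of the membrane arm and the matrix arm, had 8937, 9642 and 9544 FPKM in TMAO 1 to 3, against 10985, 10362 and 10430 FPKM in Control 1 to 3. TMAO 1 was the lowest library and Control 1 the highest. For mt-Nd1 the limma estimate was -0.18 ± 0.046 (adjusted p = 0.156), and it was 0.21 with quantile normalization.

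mt-Nd5 (ENSMUSG00000064367, chrM:11742-13565), the subunit at the far end of the membrane arm, had 3526, 3244 and 3591 FPKM in TMAO 1 to 3, against 4248, 4112 and 3729 FPKM in Control 1 to 3. TMAO 3 and Control 3 came close to each other, and the limma log2 estimate was -0.22 ± 0.058 (adjusted p = 0.161). mt-Nd6 (ENSMUSG00000064368, chrM:13552-14070, minus strand), also of the membrane arm, is the protein gene read from the opposite strand to all others. It had 1522, 1258 and 1599 FPKM in TMAO 1 to 3, against 1671, 1786 and 1818 FPKM in Control 1 to 3. TMAO 2 was the lowest library, and the TMAO libraries varied more (12.2%) than the Control libraries (4.40%). Its log2 fold change of -0.28 ± 0.088 had an adjusted p = 0.256 with limma, and without TMAO 2 it was -0.17. The kit marks the strand, but the strand setting of the counting is not given in the sources used here, so reads of mt-Nd6 and of antisense RNA from the long transcript opposite it cannot be told apart, and mt-Nd6 is uncertain for that reason.

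The small complex I genes within the copied stretch gave no such gap. mt-Nd3 had 29.6, 29.4 and 24.0 FPKM in TMAO 1 to 3, against 32.2, 25.4 and 24.6 FPKM in Control 1 to 3, and the groups overlapped. The limma estimate on the log2 scale was 0.02 ± 0.12 (adjusted p = 0.973), with a sign that changed between settings. mt-Nd4l rested on 43, 24 and 21 reads in TMAO 1 to 3, against 31, 35 and 34 reads in Control 1 to 3, and its log2 estimate was -0.23 ± 0.22 (adjusted p = 0.725 with limma). Leaving out a library moved this estimate between -0.47 (without TMAO 1) and -0.089 (without TMAO 3). TMAO 1 was the highest of the 6 libraries for mt-Nd4l and TMAO 3 the lowest.

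mt-Cytb (ENSMUSG00000064370, chrM:14145-15288), the cytochrome b subunit of complex III, had 8387, 8800 and 8775 FPKM in TMAO 1 to 3, against 10436, 9543 and 9779 FPKM in Control 1 to 3. The groups did not overlap, and Control 1 was the highest library. With limma the log2 fold change was -0.20 ± 0.046 at an adjusted p = 0.131, and it was 0.06 with quantile normalization.

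Among the cytochrome c oxidase genes, mt-Co1 (ENSMUSG00000064351, chrM:5328-6872) had 17076, 18152 and 17625 FPKM in TMAO 1 to 3, against 21177, 19475 and 19036 FPKM in Control 1 to 3. Control 1 stood above the rest, and the groups did not overlap. This gave -0.17 ± 0.050 on the log2 scale (adjusted p = 0.189 with limma), and 0 with quantile normalization, where mt-Co1 is the highest gene of every library. mt-Co2, which holds the copper site that takes electrons from cytochrome c, had 277, 259 and 330 FPKM in TMAO 1 to 3, against 411, 280 and 331 FPKM in Control 1 to 3. The groups overlapped, and the log2 estimate was -0.23 ± 0.17 (adjusted p = 0.659 with limma), or -0.082 without Control 1 and -0.36 without Control 2.

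mt-Co3, a further core subunit of the oxidase, had 130, 138 and 164 FPKM in TMAO 1 to 3, against 313, 126 and 106 FPKM in Control 1 to 3. Control 1 was the highest library by far, and the other Control libraries lay below the lowest TMAO library. On the log2 scale the limma estimate was -0.17 ± 0.48 (adjusted p = 0.923), and without Control 1 it was 0.31. The sign of mt-Co3 therefore rested on a single library.

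The ATP synthase genes overlap on the same strand and share 43 bases, shown here because fragments that cover them belong to both genes (chrM:7927-7969, plus strand). Capitals mark the start codon of mt-Atp6 and the stop codon of mt-Atp8:
overlap: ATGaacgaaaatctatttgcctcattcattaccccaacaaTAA

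mt-Atp8 was listed at 0 FPKM in TMAO 1 and at 0.307 and 0.327 FPKM in TMAO 2 and 3, which is 1 read in each of these libraries, and at 0 FPKM in all Control libraries. It did not reach the filter of the test, and no fold change is given. mt-Atp6 had 78.7, 75.3 and 69.9 FPKM in TMAO 1 to 3, against 101, 77.7 and 70.3 FPKM in Control 1 to 3. Apart from Control 1 the libraries lay together, and the limma log2 estimate was -0.13 ± 0.14 (adjusted p = 0.746), or 0.01 without Control 1. When the reads of each chromosome 1 copy were added to its gene, an alternative chosen after seeing the data, mt-Co2, mt-Atp6, mt-Co3, mt-Nd3 and mt-Nd4l had log2 fold changes of -0.19, -0.13, -0.10, 0.08 and -0.25, and 0 of them passed (limma adjusted p of 0.580 or more).

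**Figure D3:**
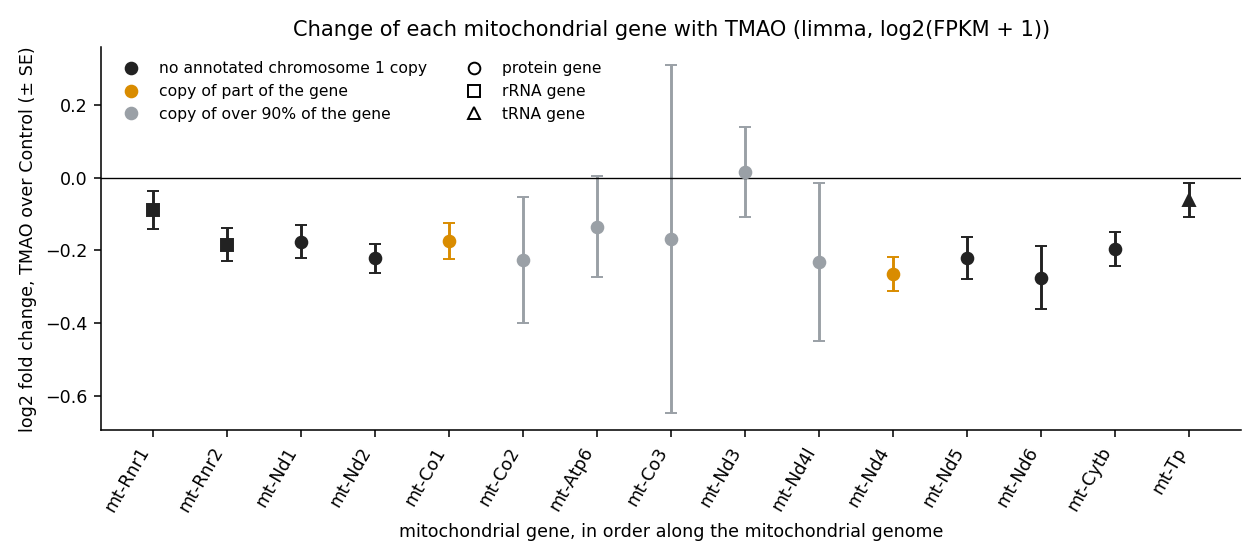
Log2 fold change of TMAO over Control for the 15 tested mitochondrial genes (limma, log2(FPKM + 1), error bars are SE), in order along the mitochondrial genome, with colour for the extent of the chromosome 1 copy and shape for the class. The 7 protein genes without a copy of over 90% lie between -0.28 and -0.17 with SE of 0.088 or less, and the 5 genes with such a copy have SE of 0.12 to 0.48. With quantile normalization mt-Rnr1, mt-Nd1, mt-Nd3, mt-Cytb and mt-Tp were above 0, and mt-Co1 was at 0.

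Of the rRNA genes 0 of 2 passed, and the groups separated for mt-Rnr2 but not for mt-Rnr1. mt-Rnr2 (ENSMUSG00000064339, chrM:1094-2675), the RNA of the large subunit of the mitochondrial ribosome, had 1921, 2065 and 2008 FPKM in TMAO 1 to 3, against 2336, 2295 and 2182 FPKM in Control 1 to 3. The groups did not overlap. Limma gave a log2 fold change of -0.18 ± 0.045 and an adjusted p = 0.140, and the gene passed with voom on recovered reads (adjusted p = 0.0289). mt-Rnr1 (ENSMUSG00000064337, chrM:70-1024), the RNA of the small subunit, had 1463, 1684 and 1597 FPKM in TMAO 1 to 3, against 1671, 1713 and 1652 FPKM in Control 1 to 3. TMAO 2 lay above the lower Control libraries, so the groups overlapped, and TMAO 1 was the lowest. For mt-Rnr1 limma gave -0.09 ± 0.053 on the log2 scale (adjusted p = 0.523), and 0.06 with quantile normalization.

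The tRNA class came down to mt-Tp (ENSMUSG00000064372), the tRNA gene for proline, whose sequence is shown because it was the tRNA gene that the libraries could be compared on (chrM:15356-15422, minus strand):
mt-Tp: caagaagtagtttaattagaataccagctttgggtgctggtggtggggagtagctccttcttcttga

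mt-Tp had 1595, 1602 and 1633 FPKM in TMAO 1 to 3, against 1787, 1605 and 1657 FPKM in Control 1 to 3. These levels rest on 1640 to 1766 reads in TMAO libraries and 1620 to 1866 reads in Control libraries. The groups overlapped, Control 1 was the highest library, and the group means were 1610 ± 20.1 FPKM in TMAO and 1683 ± 93.8 FPKM in Control libraries (SD, n = 3 each). Limma gave mt-Tp a log2 fold change of -0.06 ± 0.047 (adjusted p = 0.621), and it was 0.08 with quantile normalization, -0.019 without Control 1 and -0.096 without Control 2. On the annotated genome 20 of the 22 tRNA genes have another gene within 40 bases on both sides, and mt-Tp is the last gene before the control region, with none annotated after it. A level per kilobase is hard to compare between a gene of 67 bases and longer ones, and the strand caveat of mt-Nd6 holds for mt-Tp as well.

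As a share of all reads of a library, protein genes took 5.90%, 6.14% and 6.16% in TMAO 1 to 3, against 7.30%, 6.80% and 6.72% in Control 1 to 3. The ratio of the group means was 0.874, and the TMAO libraries lay below all Control libraries. The rRNA genes took 0.444%, 0.487% and 0.470% in TMAO 1 to 3, against 0.529%, 0.527% and 0.503% in Control 1 to 3, again without overlap and with a ratio of 0.899. As shares of summed FPKM the rRNA groups overlapped, since TMAO 2 (0.874%) lay above Control 3 (0.873%). The tRNA gene took 0.0107%, 0.0107% and 0.0109% in TMAO 1 to 3, against 0.0120%, 0.0108% and 0.0111% in Control 1 to 3, with a ratio of 0.956 and overlapping groups. The difference of the tRNA shares was -0.000491 percentage points, and -0.000142 without Control 1. Without the genes that have a chromosome 1 copy, the ratio for protein genes was 0.870.

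**Figure D4:**
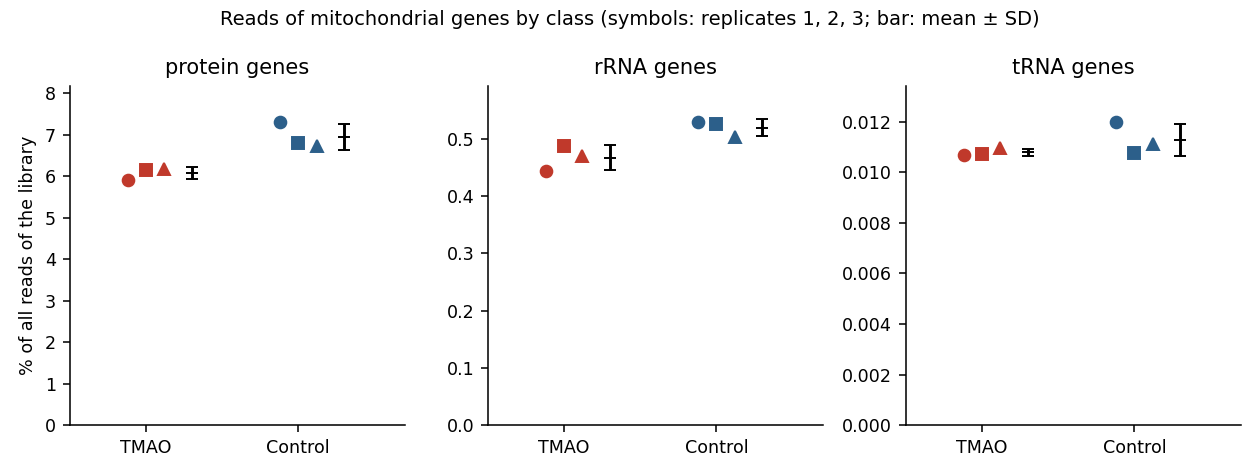
Percent of all reads of a library taken by mitochondrial protein, rRNA and tRNA genes, TMAO left of Control, each axis starting at 0; circles, squares and triangles are replicates 1, 2 and 3 and the bar is the mean ± SD. The TMAO libraries lie at 5.90% to 6.16% for protein genes, below the 6.72% to 7.30% of the Control libraries.

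Libraries were not interchangeable across members. Control 1 was the highest library for 11 of the 16 genes and TMAO 1 the lowest for 8 of them. Leaving out Control 1 gave a median log2 fold change of the protein genes of -0.15, still below 0, and leaving out any other library gave -0.17 to -0.24.

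Within the reads counted at mitochondrial genes, the genes with the most reads kept their shares to within the spread between libraries. Reads counted at the chromosome 1 copies are not in this total, so shares of the copied genes are uncertain. mt-Co1, mt-Cytb and mt-Nd1 together took 70.4% ± 0.781 of the mitochondrial reads in TMAO libraries and 69.9% ± 0.522 in Control libraries (SD, n = 3 each), and mt-Co1 alone 41.6% ± 0.623 and 41.1% ± 0.562. Ratios between members do not depend on the library total, and 6 were compared with an exact two-sided permutation test, which cannot give less than 0.1 with 3 libraries against 3. The reads of mt-Tp per read of protein genes were 0.00181, 0.00175 and 0.00178 in TMAO 1 to 3, against 0.00164, 0.00158 and 0.00165 in Control 1 to 3. The groups did not overlap, with a log2 difference of 0.13 and an exact permutation p = 0.1, or 0.3 adjusted over the 6 ratios.

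The ratio of mt-Rnr1 to mt-Rnr2 was 0.460, 0.492 and 0.480 in TMAO 1 to 3, against 0.432, 0.451 and 0.457 in Control 1 to 3. The closest libraries, TMAO 1 and Control 3, differed by less than the spread within either group, though the groups did not overlap (log2 difference 0.10, exact permutation p = 0.1, adjusted 0.3). The ratio of rRNA to protein reads overlapped between the groups (0.0769 ± 0.00219 in TMAO and 0.0749 ± 0.00244 in Control, exact permutation p = 0.4). The same held for mt-Nd6 against the other protein genes (0.0127 ± 0.00165 and 0.0134 ± 0.00117, exact permutation p = 0.5) and for complex I against complex IV genes (0.844 ± 0.0293 and 0.865 ± 0.0276, exact permutation p = 0.5). The complex IV reads were nearly all of mt-Co1. mt-Co2 and mt-Co3 took 0.302% and 0.172% of the mitochondrial reads in TMAO libraries, and 0.311% and 0.187% in Control libraries. The ratio of mt-Nd4l to mt-Nd4, which sit on the same mRNA, was 0.000588 ± 0.000236 in TMAO and 0.000565 ± 5.52e-05 in Control, with an exact permutation p = 1.

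**Figure D5:**
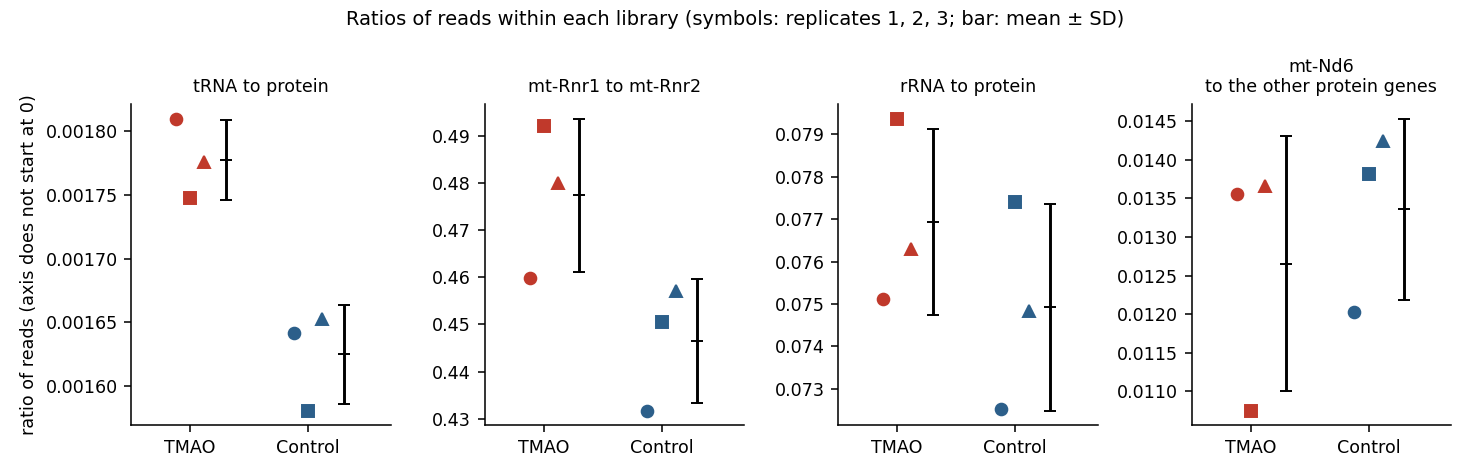
Ratios of reads between mitochondrial genes within each library, TMAO left of Control; circles, squares and triangles are replicates 1, 2 and 3, the bar is the mean ± SD, and the axes do not start at 0. The groups separate for tRNA to protein genes (0.00175 to 0.00181 in TMAO, 0.00158 to 0.00165 in Control) and for mt-Rnr1 to mt-Rnr2, and overlap for the other ratios shown.

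Nuclear genes that serve the mitochondrial genome were read from 6 lists, and 0 of their tested members passed in either direction. In the list for maintenance and transcription of the DNA 0 of 17 tested genes passed in either direction, with a median log2 fold change of 0.06. The mitochondrial RNA polymerase gene Polrmt had 0.08 (limma adjusted p = 0.803), Tfam, which packages the DNA and helps to start transcription, had 0.03 (0.898), and Tfb2m, which opens the promoter, had 0.08 (0.673). The elongation factor Tefm averaged 6.20 ± 0.534 FPKM in TMAO cells and 7.22 ± 0.364 FPKM in Control cells (SD, n = 3 each), which was -0.19 as a log2 fold change (0.306).

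Of the 24 tested genes for cutting, stabilising and degrading mitochondrial RNA, 0 passed in either direction, and the median was -0.01. Trmt10c, a subunit of the nuclease that frees the 5' ends of tRNAs, had -0.19 (limma adjusted p = 0.272), and Elac2, which cuts the 3' ends, had -0.01 (0.967). Lrpprc, which protects the mRNAs, had 0.11 (0.518) and its partner Slirp was under the filter, the exoribonuclease gene Pnpt1 had -0.05 (0.794), its helicase partner Supv3l1 0.13 (0.611) and the poly(A) polymerase gene Mtpap 0.06 (0.786). Tbrg4, a FASTK family gene, had 0.22 (0.207).

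Of the 29 tested genes for modifying and charging mitochondrial tRNAs, 0 passed, with a median of 0.02, and the methyltransferase gene Trmt5 had -0.17 (limma adjusted p = 0.218). Of the 10 tested regulators of biogenesis 0 passed, with a median of 0.04. Myc, a transcription factor and the lowest of them by p, had 0.19 (limma adjusted p = 0.501), and Ppargc1a, the coactivator PGC-1 alpha, was under the filter. Of 18 nuclear markers of mitochondrial content 0 passed, with a median of 0.06 and 14 above 0, against 60% of all tested genes. At an unadjusted p of 0.05 (limma), 4 were higher and 0 lower, against 8.61% and 4.48% of all tested genes. For 4 of the 18 all TMAO libraries lay above all Control libraries, against 12.4%, and for 0 below, against 6.23%. Vdac1, the channel of the outer membrane, averaged 180 ± 3.01 FPKM in TMAO cells and 162 ± 1.32 FPKM in Control cells (log2 fold change 0.15, limma adjusted p = 0.154), and citrate synthase (Cs) had 0.07 (0.587). Of the 29 tested nuclear subunits of the same respiratory complexes 0 passed, with a median of 0.04 and 18 above 0, where 60% of all tested genes were above 0. Ndufb8, a complex I subunit, had the lowest p of them, with 0.15 (limma adjusted p = 0.242). Among these 29 subunits 4 were higher and 0 lower at an unadjusted p of 0.05 (limma), against 8.61% and 4.48% of all tested genes. For 6 of the 29 all TMAO libraries lay above all Control libraries, against 12.4%, and for 0 below, against 6.23%. At an unadjusted p of 0.05 the 6 lists held 13 genes above 0 (10.2% of 127, against 8.61% of all tested genes) and 3 below 0 (2.36%, against 4.48%).

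Levels of RNAs retained in the nucleus were set beside these. Of 13 listed members 8 were tested and 0 passed, their median log2 fold change was 0.41, and for 4 of them all TMAO libraries lay above all Control libraries, as for 12.4% of all tested genes. Their summed level ranged from 190 to 269 FPKM in TMAO libraries and from 101 to 143 FPKM in Control libraries, most of it Malat1. Xist, the RNA that coats the inactive X chromosome, had the lowest p of them, with 30.8, 22.3 and 24.0 FPKM in TMAO 1 to 3, against 12.8, 15.2 and 12.5 FPKM in Control 1 to 3 (log2 fold change 0.87, limma adjusted p = 0.0798). Of the 8 tested, 6 were above 0 and 2 below. At an unadjusted p of 0.05 (limma), 4 were higher and 0 lower, against 8.61% and 4.48% of all tested genes. Neat1 (0.53) and Firre (0.47) had limma adjusted p-values of 0.231 and 0.139. Tug1 (0.02), Pvt1 (-0.0060) and Rian (-0.09) stood near or below 0 on the log2 scale, with adjusted p-values of 0.943, 0.983 and 0.801 in limma. Malat1, the most abundant of them, had 218, 153 and 183 FPKM in TMAO 1 to 3, against 75.0, 113 and 84.4 FPKM in Control 1 to 3 (log2 fold change 1.02, limma adjusted p = 0.196). The part of these RNAs in the levels of the mitochondrial genes was not tested. With library totals that leave out all mitochondrial genes, the median log2 fold change over the protein genes was -0.22. The mitochondrial share was lower in every TMAO library than in any Control library, so this scaling could only move fold changes down. It therefore cannot show what part these RNAs had.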

How the data were processed

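The authors deposited a table of FPKM values per library, and the submitters' processing notes name Trimmomatic, HISAT2, Cufflinks, HTSeq and build mm10 without versions. Per the labels' protocols, libraries came from a stranded mRNA kit. The strand setting and the treatment of reads with several matches are unknown here, and they bear on mt-Nd6, mt-Tp and the copied genes.

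Library totals and reads were computed from the deposited FPKM values with exon lengths of GENCODE M21, and 25499 of 25885 genes (98.5%) gave whole reads in all 6 libraries to within 0.01 reads. The test was limma 3.58.1 in R 4.3.3 (trended, robust) on log2(FPKM + 1), a scale that understates changes of low genes. It used genes that reached 1 FPKM in 3 libraries or more and Benjamini-Hochberg adjustment over 11062 genes. A count test had been planned in case the tables held counts. The fit was tested on simulated data. Copies were found with blastn 2.17.0 at an identity of at least 90% over at least 100 bases of annotated transcripts. Sequences come from the GENCODE M21 transcripts. Ratios used an exact permutation test. Alternatives were other scalings, filters, pseudocounts and fits, a replicate block and each library left out; adding the reads of the copies, and protein genes without a copy, were chosen after seeing the data.

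All 16 members are described, and nuclear genes were named from among the 4 tested members of each list with the smallest p and from a fixed panel, with Tug1, Pvt1 and Rian chosen after their values were seen. Members and lists were chosen with earlier results of these data known. Within each group no library repeated another in a chi-square comparison of reads.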

Additional observations from a re-analysis of the deposited data

How the results depend on the processing

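The count of all genes past the threshold, 20 (8 higher and 12 lower in TMAO), was 25 (7 and 18) with quantile normalization, 19 (12 and 7) with a filter of 0.1 FPKM, 0 with no filter (limma, 1999 at an unadjusted p of 0.05), 57 with a filter of 5 FPKM, 90 with voom on recovered reads and 11 to 56 when a library was left out (11 without Control 3, 12 without TMAO 1, 56 without TMAO 2, with 42 higher and 14 lower, and 22 without Control 1, with 14 and 8). The count of protein genes, 0, was 2 with a filter of 5 FPKM and 6 with voom, and 0 in every fit that left out a library, with 6 to 8 at an unadjusted p of 0.05. Quantile normalization, which gives all libraries the same highest values, gave medians of -0.15 for protein and -0.031 for rRNA genes, and log2 fold changes of 0.060 for mt-Rnr1, 0.21 for mt-Nd1, 0.063 for mt-Cytb and 0.079 for mt-Tp. The protein median was -0.24 to -0.15 when a library was left out, with -0.15 without Control 1. Leaving out a library gave ranges of -0.24 to 0.012 for mt-Atp6, -0.47 to 0.31 for mt-Co3 and -0.053 to 0.13 for mt-Nd3, which was -0.011 with median-ratio size factors. The log2 difference of the mt-Nd6 ratio ranged from -0.16 to 0.030, that of mt-Nd4l to mt-Nd4 from -0.32 to 0.20, and the nuclear-retained count from 0 to 2. The causes were not tested beyond this. Under the 17 alternatives of the gene fit, mt-Nd2, mt-Nd4, mt-Nd5, mt-Nd6, mt-Rnr2, mt-Co2 and mt-Nd4l were below 0 in all. The filters, the fit that is not robust and the replicate block cannot change the log2 fold change of a gene. Their agreement in sign was therefore fixed in advance, and the other scalings and the libraries left out were the main settings that could move it. The ratio without copied genes gave no value for mt-Nd4l to mt-Nd4 or complex I to complex IV.

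The replicate block gave 22 genes past the threshold (12 higher and 10 lower), 0 protein genes and a protein median of -0.21, which a balanced block cannot move. Same-numbered libraries had deviations that correlated at -0.0858, -0.104 and 0.0555, and TMAO 1 correlated best with Control 2 (0.141). Deviations from the mean of 3 libraries offset each other, so these values cannot show whether same-numbered libraries shared a culture or batch.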
